A study of Mus musculus with 8 samples.

Results

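Transcripts of 38 leukocyte lineage marker genes were followed in RNA-seq of 8 mouse malignant mesothelioma samples. The genes were matched by symbol, and all 38 were found among the 52636 genes counted. They mark all leukocytes (Ptprc), macrophages and monocytes (16 genes), dendritic cells (4), neutrophils (3), T cells (5), B and plasma cells (3), NK and cytotoxic cells (4) and mast cells (2). The 2 samples labelled double knockout carry losses of Nf2 and Cdkn2a, and the 6 labelled triple knockout carry loss of Bap1 as well, so losses of Nf2 and Cdkn2a are common to both groups. Merlin, a regulator of the Hippo pathway, is the product of Nf2, Cdkn2a gives proteins that act as brakes on the cell cycle, and Bap1 gives a deubiquitinase acting on histone H2A. The study's title describes conditional mouse models of pleural tumours. The driver of the recombinase, the strain, the age of the mice and whether each sample is a separate animal are not stated in the labels. The labels give the tissue as MM, read here from the title as malignant mesothelioma. The growth protocol speaks of cells kept in RPMI medium with serum and insulin, and the labels do not say whether the RNA came from such cultures or from tumour tissue. The p-values therefore measure the spread between these samples, and fewer cells of a type cannot be told apart from less RNA per cell.

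Leukocytes arise from blood stem cells and reach tumours through vessels or are seeded in tissues before birth. Macrophages clear debris through scavenger and Fc receptors and make complement C1q, dendritic cells carry antigen to T cells, and neutrophils deliver S100A8 and S100A9. T and NK cells kill with perforin and granzymes, B lineage cells make antibody, and mast cells store proteases such as carboxypeptidase A3. Mesothelioma is known for a stroma rich in macrophages.

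Depth was 26847202 to 32082535 counts per sample, and levels are given as CPM, the field's usual share of a sample's counts, with TMM scaling. Bap1 read 105 and 71.1 CPM for double samples 1 and 2, against 43.1 to 72.1 CPM in the triple knockouts (adjusted p = 0.122 by edgeR). Nf2, lost in both groups, read 165 and 109 CPM against 62.7 to 100 CPM (edgeR adjusted p = 0.103), so the lower level was not particular to Bap1. Cdkn2a read 1.54 and 5.16 CPM against 4.05 to 8.76 CPM (edgeR adjusted p = 0.306). These gene-level counts take in any exons that a deletion spares, so they check the labels weakly. Double sample 1 stood apart: it had the lowest level of the 8 samples for 32.4% of all tested genes and the highest for 29.7%. The mesothelial markers were uneven, with Calb2 (calretinin) at 0 to 0.0316 CPM and Wt1 at most 1.76 CPM in 7 samples against 33.2 CPM in triple sample 3, while Msln (mesothelin) ran from 12.6 to 342 CPM. Upk3b, Upk1b, Lrrn4, Krt19 and Gpm6a were also highest in triple sample 3, and Krt8 and Krt18 in double sample 2 (798 and 203 CPM). All 10 mesothelial markers summed to 288 and 1345 CPM in double samples 1 and 2 and 55.0 to 850 CPM in the triple knockouts. Summed adult skeletal muscle markers took 67589 CPM of double sample 1 and 2687 CPM of double sample 2, with a range of 118 to 13861 CPM over the triple knockouts. Summed adipocyte markers took 1020, 34.1 and 3.38 to 166 CPM in the same order, and endothelial markers 471, 370 and 238 to 566 CPM. The part of these other cells in the leukocyte values was not tested.

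Regulatory sequence is shown for genes whose levels the results below turn on: Cd68 and Itgam (both called), Itgax, which lies beside Itgam, the adjacent complement genes C1qb and C1qc, and Ptprc. Cd68, Itgam and Itgax were chosen after their values were seen. Each window runs from 250 bases before to 50 bases after a gene's start, 5′ to 3′ on the gene's strand, from RefSeq on GRCm38.p6, and 31 of the 38 markers had one. Capitals mark GAGGAA on either strand (TTCCTC when reversed), the core bound by PU.1, the myeloid factor encoded by Spi1. The windows lie at chr11:69666121-69666420, minus strand for Cd68, chr7:128062390-128062689, plus strand for Itgam, chr7:128129300-128129599, plus strand for Itgax, chr4:136886151-136886450, minus strand for C1qb, chr4:136892865-136893164, minus strand for C1qc and chr1:138175256-138175555, minus strand for Ptprc.
Cd68: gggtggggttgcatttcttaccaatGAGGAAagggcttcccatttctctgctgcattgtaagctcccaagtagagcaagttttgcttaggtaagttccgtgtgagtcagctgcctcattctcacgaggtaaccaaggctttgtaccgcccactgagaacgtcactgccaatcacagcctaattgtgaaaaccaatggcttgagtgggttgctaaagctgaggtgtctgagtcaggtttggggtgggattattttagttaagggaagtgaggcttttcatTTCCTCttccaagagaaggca
Itgam: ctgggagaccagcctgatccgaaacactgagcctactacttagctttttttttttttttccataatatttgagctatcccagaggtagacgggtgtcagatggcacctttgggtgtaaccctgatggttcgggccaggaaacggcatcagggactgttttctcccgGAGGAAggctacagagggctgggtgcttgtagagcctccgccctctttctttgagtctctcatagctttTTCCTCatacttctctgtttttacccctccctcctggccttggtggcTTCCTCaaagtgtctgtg
Itgax: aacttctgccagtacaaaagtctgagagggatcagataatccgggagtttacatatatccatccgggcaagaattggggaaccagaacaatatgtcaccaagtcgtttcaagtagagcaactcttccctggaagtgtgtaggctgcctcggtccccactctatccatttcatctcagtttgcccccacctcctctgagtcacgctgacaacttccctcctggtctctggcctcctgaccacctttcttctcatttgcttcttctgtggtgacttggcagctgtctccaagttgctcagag
C1qb: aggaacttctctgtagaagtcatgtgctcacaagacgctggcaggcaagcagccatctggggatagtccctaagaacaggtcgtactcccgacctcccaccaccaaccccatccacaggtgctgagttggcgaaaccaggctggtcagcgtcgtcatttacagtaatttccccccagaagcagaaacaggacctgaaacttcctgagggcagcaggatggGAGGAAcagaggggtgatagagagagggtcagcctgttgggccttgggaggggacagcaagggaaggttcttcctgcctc
C1qc: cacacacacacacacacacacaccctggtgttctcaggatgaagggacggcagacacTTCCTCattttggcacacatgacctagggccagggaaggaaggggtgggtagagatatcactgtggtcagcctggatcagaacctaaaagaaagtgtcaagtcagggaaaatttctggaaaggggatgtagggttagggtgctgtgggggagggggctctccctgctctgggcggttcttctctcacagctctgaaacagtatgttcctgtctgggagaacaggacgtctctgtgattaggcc
Ptprc: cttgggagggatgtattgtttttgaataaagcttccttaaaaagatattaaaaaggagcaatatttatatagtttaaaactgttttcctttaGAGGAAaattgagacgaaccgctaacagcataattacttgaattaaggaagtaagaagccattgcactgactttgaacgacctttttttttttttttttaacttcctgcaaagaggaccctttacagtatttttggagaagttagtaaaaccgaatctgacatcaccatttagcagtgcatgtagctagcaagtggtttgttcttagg
Itgam held 3 matches, Cd68 2, C1qb, C1qc and Ptprc 1 each, and Itgax 0. Of the 31 marker windows 18 (58.1%) held GAGGAA, against 28.3% of the first windows of 27025 genes. The longer form GAGGAAGT, which contains GAGGAA, was in 3 marker windows (C1qc, S100a8 and Ly6g), or 9.68%, against 3.28% of all. A match is a description of letters and does not show binding.

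Across the whole list, 2 of 37 tested markers were higher in the triple knockout samples and 0 were lower by edgeR's quasi-likelihood test at an adjusted p under 0.05. Over all 17709 genes tested 8.35% were called, 2.94% higher and 5.41% lower, so the share among the markers (5.41%) was near the background. The remaining marker, Ly6g, had 7 counts in all 8 samples together and was not tested. Log2 fold changes were positive for 28 of the 37 and had a median of 0.72, against a median of 0.02 over all genes tested, of which 50.9% were positive. At an unadjusted p under 0.05 there were 9 markers, against 27.9% of all genes: 6 macrophage, 2 dendritic (Itgax and Flt3) and 1 neutrophil marker (S100a8), with 0 of the T, B, NK and mast cell markers. The level of the double samples lay below that of every triple sample for 4 markers (Cd68, Itgam, Tyrobp and Flt3; 12.8% of all genes) and above for 1 (Cd79a; 11.4% of all genes). Of the 37 markers, 25 had their lowest level in double sample 1 and 4 their highest. Without double sample 1, 23 of 37 were positive with a median of 0.16, and 1 marker, Itgax, was called, lower, where 1.69% of all genes were called. Without double sample 2, 12 were called, 9 higher and 3 lower, with a median of 1.67, where 29.5% of all genes were called. In these fits the lone double sample is assumed to vary like the triple samples. Beside the markers, 98 further leukocyte genes were listed by lineage, of which 87 were tested, 5 rose and 0 fell, with a median log2 fold change of 0.69. At an unadjusted p under 0.05 there were 22 of these 87, made up of 7 of 19 macrophage, 6 of 12 pan-leukocyte, 2 of 9 mast cell, 0 of 15 T cell, 1 of 8 dendritic, 1 of 8 NK, 1 of 8 B lineage and 4 of 8 neutrophil genes. DESeq2 called 5 markers and 13 further genes, where it called 16.8% of all genes it tested.

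**Figure D1:**
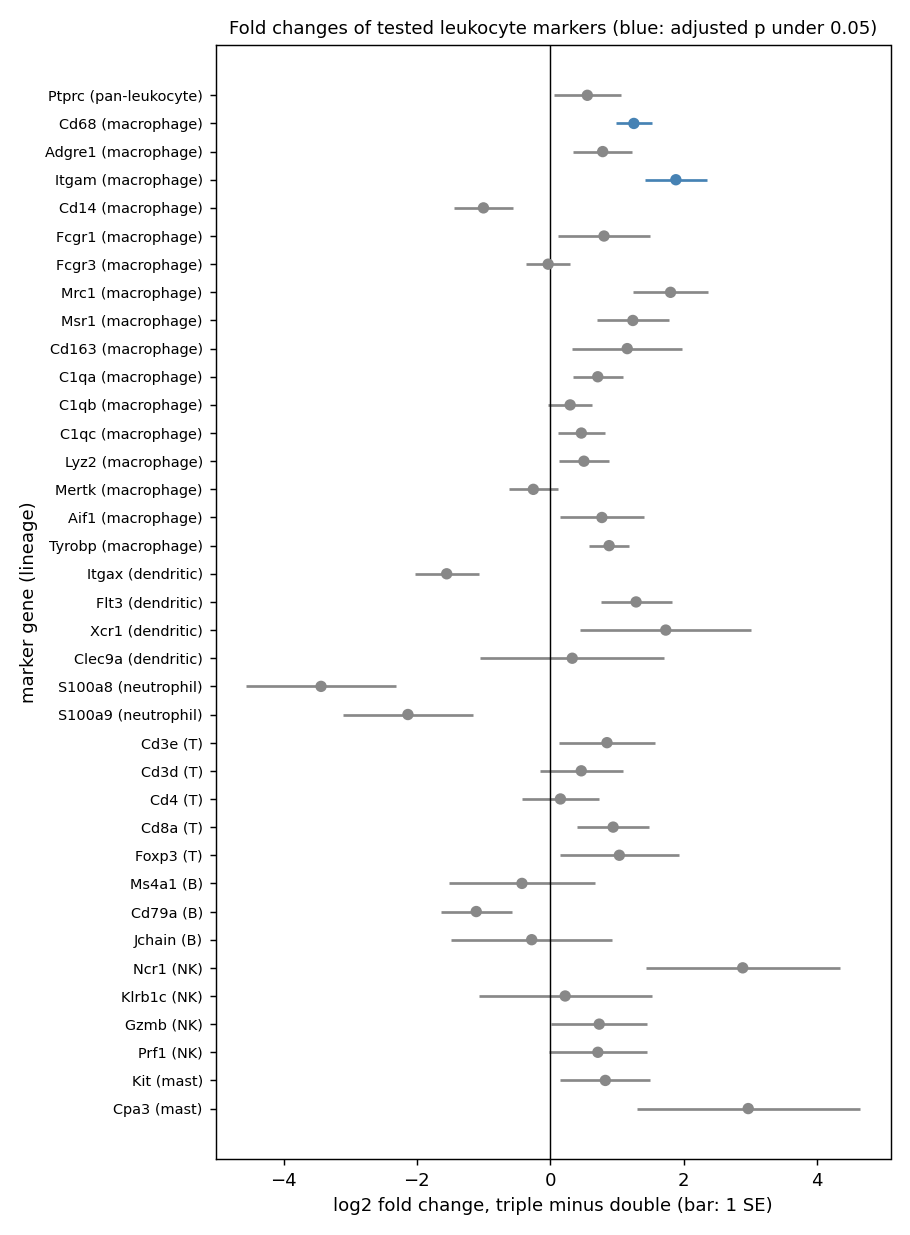
Log2 fold change, triple minus double, for the 37 tested markers; bars show 1 SE of edgeR's estimate over 2 double and 6 triple samples, and blue marks an adjusted p under 0.05. Most points lie right of 0, only Cd68 and Itgam are blue, and S100a8 lies furthest left at -3.44.

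**Figure D2:**
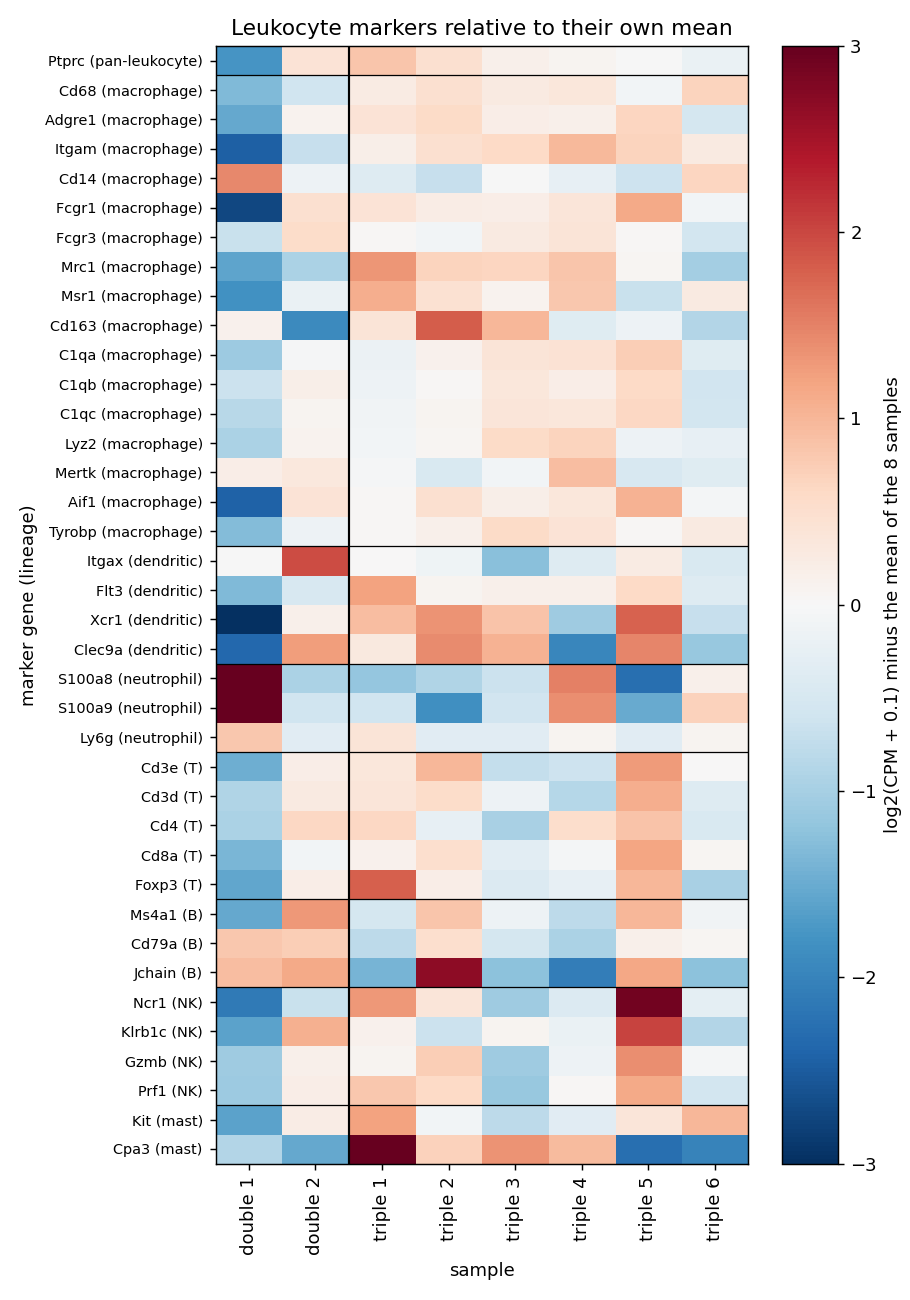
Log2(CPM + 0.1) of all 38 markers minus each gene's mean over the 8 samples; columns are samples, rows are markers grouped by lineage, and colours end at 3 and -3. Double sample 1 is blue for most rows and dark red for S100a8 and S100a9, triple sample 5 is red in the T and NK rows, and Cpa3 is darkest in triple sample 1.

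Among the macrophage and monocyte markers 2 of 16 rose (2.94% of all genes did), 0 fell and 14 missed the threshold, at a median log2 fold change of 0.78. Cd68 (chromosome 11, 69664213 to 69666153), a lysosomal glycoprotein, stood at 53.0 and 87.0 CPM in the double knockouts against 156, 184, 160, 167, 125 and 211 CPM in triple knockouts 1 to 6. Every triple sample lay above both double samples, with a log2 fold change of 1.26 ± 0.27 (SE; edgeR adjusted p = 0.0279). Itgam (chromosome 7, 128062640 to 128118491), the CD11b chain of complement receptor 3, stood at 3.80 and 13.1 CPM against 24.1, 29.7, 32.5, 42.1, 33.8 and 25.7 CPM. The groups did not overlap here either, and Itgam rose by 1.89 ± 0.46 on the log2 scale (edgeR adjusted p = 0.0430). Leaving out 1 sample ended both calls in several fits. Cd68 had an adjusted p of 0.0506 to 0.187 without double sample 1 (log2 fold change 0.94) or triple sample 1, 2, 4 or 6, and Itgam one of 0.0668 to 0.134 without double sample 1 (1.25) or any 1 of the triple samples. Itgam also had an adjusted p of 0.0647 with the description code of the labels as a term.

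The description codes split the samples into double 1 with triple 4, 5 and 6 (code SN930) and double 2 with triple 1, 2 and 3 (other codes), and the labels do not say what they mean. Cd68 was at 1.68 (edgeR adjusted p = 0.0632) within the first set and 0.93 (0.228) within the second. Itgam was called in the first set and stood at 1.12 (0.263) in the second. Each set holds a single double sample. The counts of Itgam are uncertain in another way, since 68.7% of its exon bases are shared with the overlapping gene model Gm49368, which was given 0 to 2 counts per sample. How reads in the shared part were assigned is not given in the sources used here.

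**Figure D3:**
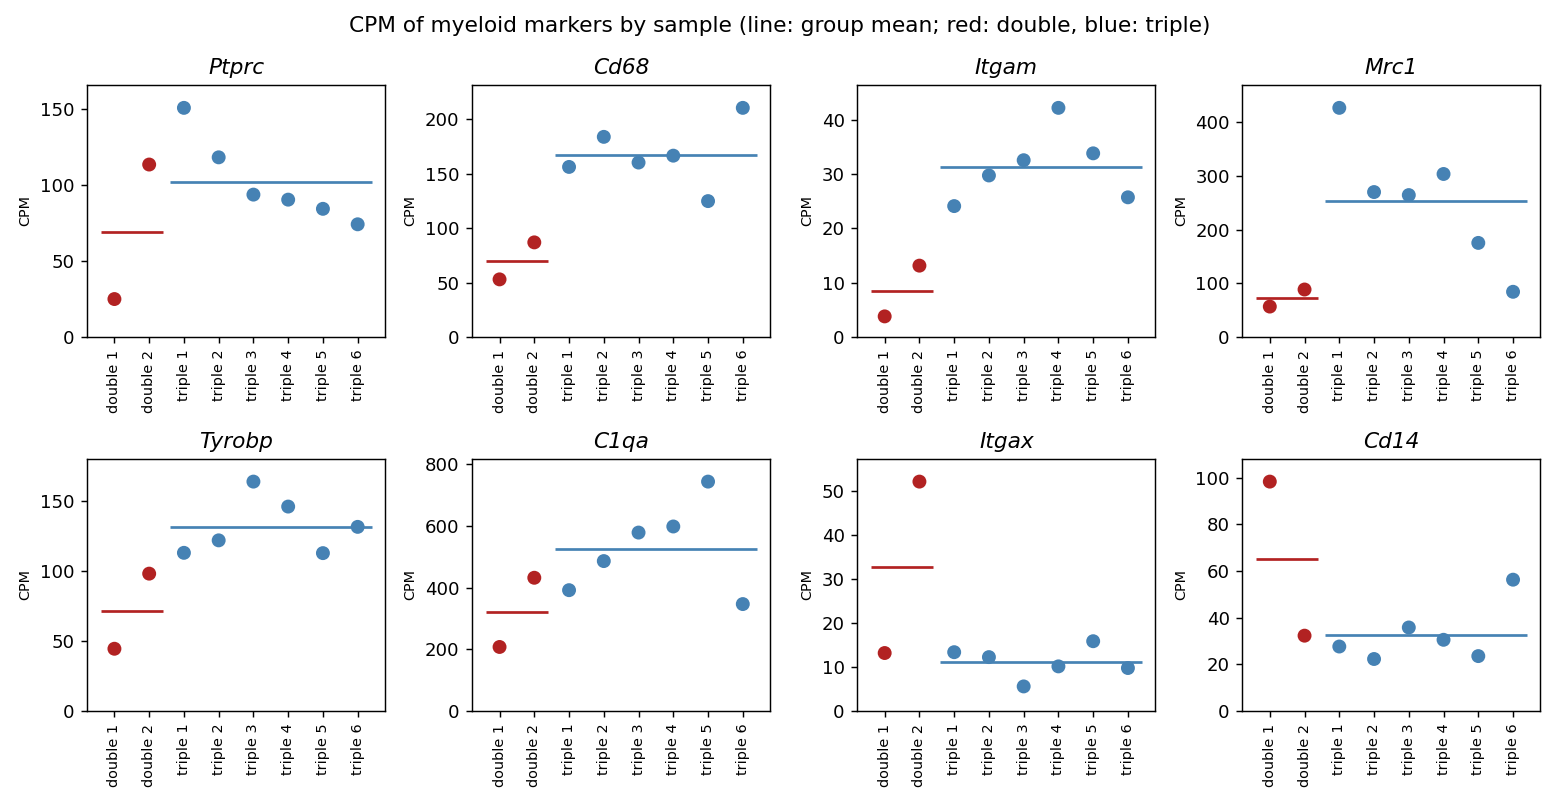
CPM of 8 myeloid markers in each sample, with a line at each group's mean (2 double samples in red, 6 triple samples in blue). Cd68, Itgam and Tyrobp show no overlap between the groups, while Itgax is highest in double sample 2 and Cd14 in double sample 1.

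Of 4 scavenger and uptake receptors 3 had positive values and none passed the test. Mrc1, the mannose receptor, stood at 56.8 and 88.5 CPM in the double knockouts against 427, 270, 264, 304, 175 and 84.3 CPM in the triple knockouts. Triple sample 6 thus lay among the double samples, and Mrc1 had a log2 fold change of 1.81 ± 0.56 with an edgeR adjusted p of 0.0816. Without triple sample 6 it was called, at 1.96 (0.0350). Msr1, scavenger receptor A, was at 18.6 and 57.0 CPM against 41.1 to 139 CPM (edgeR adjusted p = 0.173). Cd163, the haemoglobin scavenger receptor, was at 9.83 and 2.31 CPM against 4.80 to 31.6 CPM (adjusted p = 0.383), and double sample 1 lay inside the triple range and double sample 2 below it. Mertk, a receptor for dying cells that tumour cells can also express, was at 38.4 and 41.3 CPM against a lowest value of 23.9, a median of 28.6 and a highest value of 63.1 CPM (-0.25 ± 0.37; edgeR adjusted p = 0.683).

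The Fc receptors did not part the groups. Fcgr1 (CD64) stood at 5.26 and 49.7 CPM in the double knockouts against 33.7 to 79.1 CPM in the triple knockouts, so double sample 2 lay within the triple range and double sample 1 far below it. Fcgr3 (CD16), which has the related genes Fcgr4 and Fcgr2b near it on chromosome 1, was at 46.6 and 109 CPM against 50.5 to 96.9 CPM, a log2 fold change of -0.03 ± 0.33. Tyrobp (DAP12), a signalling adaptor of myeloid cells, was at 44.4 and 98.2 CPM against 113, 122, 164, 146, 113 and 132 CPM. Its groups did not overlap, but the log2 fold change of 0.88 ± 0.30 did not pass (edgeR adjusted p = 0.105).

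The 3 chains of complement C1q lie side by side on chromosome 4 and were among the most abundant markers. C1qa stood at 207 and 432 CPM in the double knockouts against 392, 486, 579, 599, 744 and 347 CPM in the triple knockouts. C1qb was at 239 and 422 CPM against 253 to 568 CPM, and C1qc at 185 and 352 CPM against 226 to 508 CPM. For all 3 genes double sample 1 was lowest and triple sample 5 highest, and adjusted p-values ran from 0.246 to 0.583 by edgeR. Within a sample their ratios were tight. C1qc over C1qb was 0.776 and 0.834 in the double samples and 0.895 to 0.974 in the triple samples. C1qa over C1qb was 0.868 and 1.02 in the double samples and 1.16 to 1.40 in the triple samples. Neither ratio overlapped between the groups. Both ratios share C1qb and were unplanned, and the share of gene pairs that part the groups this way was not computed. For single genes, the CPM of the groups did not overlap for 24.1% of those tested.

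Lyz2, the lysozyme of myeloid cells, had the highest mean CPM of all markers. It stood at 512 and 1059 CPM in the double knockouts against 934.4, 1027, 1458, 1557, 888 and 829 CPM in the triple knockouts, so double sample 2 lay within the triple range (adjusted p = 0.394). Its close copy and neighbour Lyz1 had 1.88 to 20.6 CPM, and the counting may have split reads between them. Per kilobase of exon, the triple means on the CPM scale were 848 for Lyz2, 504 for C1qa, 374 for C1qb, 197 for Tyrobp, 192 for C1qc and 133 for Cd68. On the same scale no T, B, NK or mast cell marker exceeded the 8.29 of Jchain.

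Adgre1 (F4/80) stood at 38.4 and 120 CPM in the double knockouts against 77.7 to 177 CPM, and Aif1 (IBA1) at 5.26 and 38.2 CPM against 27.3 to 59.2 CPM. Both were lowest in double sample 1, with double sample 2 inside the triple range. Cd14, the lipopolysaccharide co-receptor, ran the other way, at 98.3 and 32.2 CPM against 27.6, 22.2, 35.7, 30.4, 23.5 and 56.2 CPM. Double sample 1 alone lay above the triple samples, and the value of -1.0 ± 0.44 did not pass (edgeR adjusted p = 0.177). Without double sample 1 it was 0.01.

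Of 19 further macrophage and monocyte genes tested, 3 rose (2.94% of all genes did), 0 fell and 16 missed the threshold, at a median log2 fold change of 0.82. Folr2, a folate receptor of tissue-resident macrophages, stood at 2.79 and 5.99 CPM in the double knockouts against 32.6, 41.9, 42.1, 24.4, 29.3 and 15.4 CPM in the triple knockouts. Every triple sample was above both double samples, and Folr2 rose by 2.81 ± 0.50 (edgeR adjusted p = 0.0163). Timd4, a phosphatidylserine receptor of resident macrophages, rose by 2.72 ± 0.54 at low levels, from 0.121 and 0.325 CPM to 1.09 to 2.06 CPM (edgeR adjusted p = 0.0235). Spi1, which encodes PU.1, rose by 1.27 ± 0.28, from 23.2 and 45.5 CPM to 64.8 to 96.0 CPM (edgeR adjusted p = 0.0309). Csf1r and Clec7a were singled out after their values were seen. Csf1r, the receptor for the macrophage growth factor CSF1, showed no overlap, at 126 and 289 CPM against 389 to 574 CPM (edgeR adjusted p = 0.0588). Clec7a (dectin-1) had a negative value, -1.44 ± 0.53, at 9.71 and 43.9 CPM against 5.97 to 15.97 CPM (adjusted p = 0.125). None of the 3 calls held without double sample 1, where Folr2 was at 2.36 (edgeR adjusted p = 0.114), Timd4 at 2.19 (0.132) and Spi1 at 0.85 (0.144). Timd4 also lost its call without triple sample 1 (0.0514), and Spi1 without triple sample 2, 3, 4, 5 or 6 (0.0559 to 0.0611). Within the samples of other description codes 0 of the 5 further genes called over all 8 samples were called by edgeR, and within code SN930 Timd4 was not (0.0580).

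Ptprc (CD45), the phosphatase carried by nearly all leukocytes, stood at 25.0 and 114 CPM in the double knockouts against 151, 118, 93.8, 90.5, 84.4 and 74.3 CPM in the triple knockouts. Double sample 2 lay inside the triple range and double sample 1 far below it, with a log2 fold change of 0.56 ± 0.50 (edgeR adjusted p = 0.491), and -0.16 without double sample 1. Of 12 further pan-leukocyte genes 1 rose (2.94% of all genes did), 0 fell and 11 did not pass. All 12 were lowest in double sample 1, against 32.4% of all genes. Rac2, a GTPase of blood cells, rose by 1.96 ± 0.46, from 10.5 and 33.3 CPM to 61.9 to 114 CPM (edgeR adjusted p = 0.0369), and lost its call without any 1 sample other than double sample 2 (0.0535 to 0.142). Lcp1 (L-plastin, an actin bundler), singled out after its values were seen, was at 26.6 and 171 CPM against 221 to 340 CPM (edgeR adjusted p = 0.127).

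Each marker was also read relative to Ptprc within its sample, a measure added after the values were seen. Of 36 markers, 1 then lay higher in all triple samples (Itgam) and 2 lay lower (Itgax and Cd79a). Over all genes tested 3.11% lay higher and 8.54% lower on this measure, so the count was near the background. Itgam was at 0.152 and 0.116 of the Ptprc level in the double knockouts against 0.160, 0.251, 0.347, 0.466, 0.400 and 0.346 in the triple samples. Triple sample 1 was barely above double sample 1. Cd68 overlapped on this measure, at 2.12 and 0.766 against 1.04 to 2.84, and so did C1qa, at 8.28 and 3.80 against 2.60 to 8.82. Of 87 further leukocyte genes, 8 lay higher and 3 lower, among them Folr2 at 0.111 and 0.0527 against 0.207 to 0.449 and Clec7a at 0.388 and 0.386 against 0.0411 to 0.170.

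**Figure D4:**
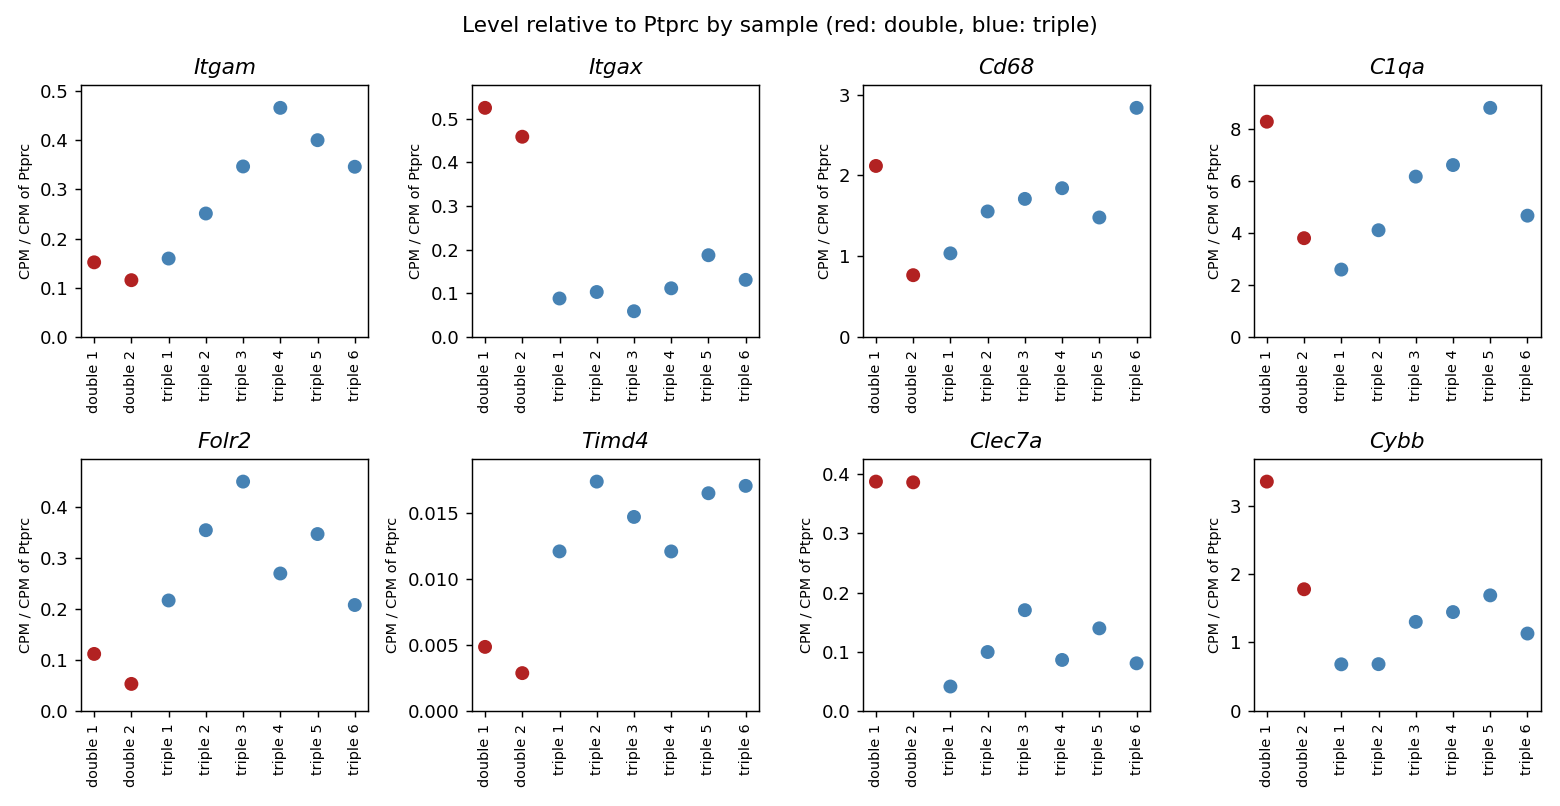
CPM of 8 genes divided by the CPM of Ptprc in the same sample (2 double samples in red, 6 triple samples in blue; linear axes from 0). Itgax, Clec7a and Cybb are lower and Itgam, Folr2 and Timd4 higher in every triple sample, while Cd68 and C1qa overlap.

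Of the dendritic cell markers 0 of 4 were called, and 3 had positive and 1 a negative log2 fold change. Itgax (CD11c; chromosome 7, next to Itgam), an integrin of dendritic cells and some macrophages, stood at 13.1 and 52.1 CPM in the double knockouts against 13.3, 12.2, 5.55, 10.1, 15.8 and 9.73 CPM in the triple knockouts. Double sample 2 was the highest and double sample 1 lay within the triple range, with a log2 fold change of -1.55 ± 0.48 (edgeR adjusted p = 0.0806). It was -2.24 and called without double sample 1 (edgeR adjusted p = 0.0439), a fit of 1 double sample, the highest of the 8, against 6, with the spread taken from the triple samples. Relative to Ptprc, Itgax was at 0.525 and 0.459 in the double knockouts against 0.0591 to 0.187 in the triple samples. Itgam over Itgax within a sample was 0.289 and 0.252 against 1.81 to 5.86. Both genes were picked for their values, so the separation of this ratio follows from that choice, and it carries the uncertainty of the Itgam counts.

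Markers of cross-presenting dendritic cells were scarce. Flt3, the receptor for the growth factor of these cells, stood at 0.930 and 1.77 CPM in the double knockouts against 5.94, 2.63, 2.79, 2.78, 3.80 and 1.90 CPM in the triple knockouts, without overlap (1.29 ± 0.53; edgeR adjusted p = 0.158). Xcr1 had 0, 27, 53, 75, 52, 11, 101 and 15 counts in double samples 1 and 2 and triple samples 1 to 6, and Clec9a had 0, 31, 16, 40, 30, 1, 42 and 4. Both were undetected in double sample 1, which allows a level of up to 0.121 CPM for counting error only, and both were highest in triple sample 5. Clec9a shares 5.59% of its exon bases with Clec1b. Of 8 further dendritic genes tested 0 were called and all 8 were positive, but 7 were lowest in double sample 1 (32.4% of all genes). Cd209a (DC-SIGN family) was at 4.75 ± 1.84 and Wdfy4, needed for cross-presentation, at 1.11 ± 0.50 (edgeR adjusted p = 0.137 and 0.185).

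**Figure D5:**
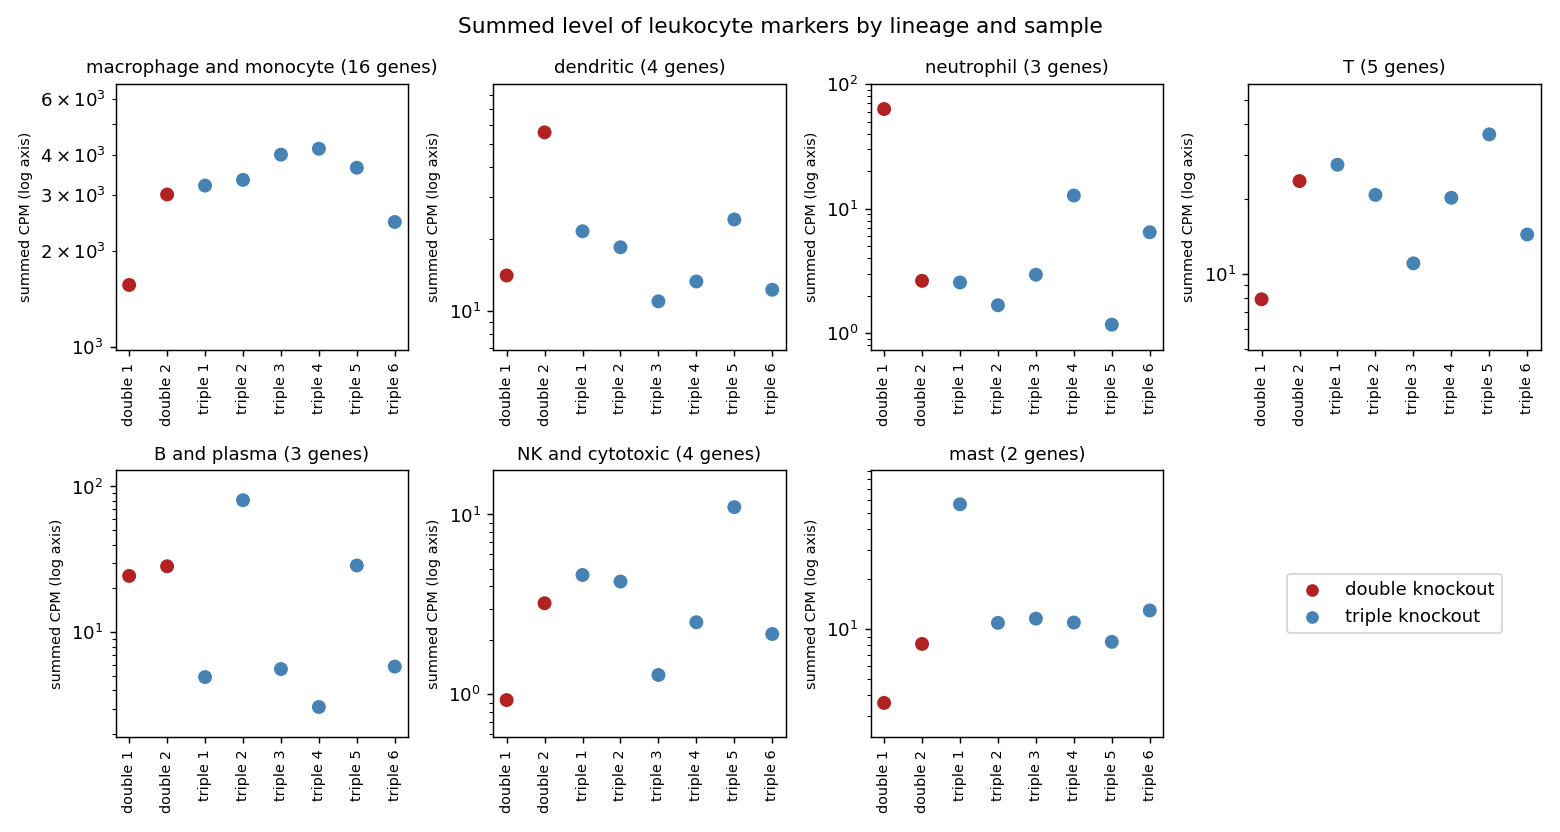
Summed CPM of the markers of 7 lineages in each sample on log axes (2 double samples in red, 6 triple samples in blue). The highest sample differs between lineages: double sample 1 for neutrophils (63.1), triple sample 2 for B and plasma (80.6), triple sample 5 for T (36.3) and NK and cytotoxic (10.99), and triple sample 1 for mast markers (56.5).

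Of the neutrophil markers 0 of 2 tested were called, and both were highest in double sample 1. S100a8, a calcium-binding alarmin, stood at 41.8 and 1.01 CPM in the double knockouts against 0.862, 1.04, 1.28, 5.997, 0.348 and 2.30 CPM in the triple knockouts. S100a9, its partner in calprotectin, was at 21.2 and 1.62 CPM against 1.63, 0.633, 1.67, 6.73, 0.823 and 4.13 CPM. Double sample 2 lay within the triple range for both, and triple sample 4 was the next highest. S100a8 had a value of -3.44 ± 1.12 (edgeR adjusted p = 0.0925) and S100a9 of -2.13 ± 0.98 (0.193), which were 0.96 and 0.67 without double sample 1. Ly6g, the surface marker of mouse neutrophils, had 3 counts in double sample 1 and 0 to 2 in each other sample, so its level could not be compared at this depth. Of 8 further neutrophil genes tested 0 were called, 4 were positive and 4 negative, and 4 were highest in double sample 1, with a median of -1.10. Csf3r, the receptor for the neutrophil growth factor, was lowest there, at 4.81 CPM, Mpo (myeloperoxidase) was highest in triple sample 6 and Mmp8 (a collagenase) in triple sample 3. Ngp, a granule protein of immature neutrophils, was at 7.60 CPM in double sample 1 and at most 0.609 CPM elsewhere (adjusted p = 0.0808), and Camp, cathelicidin, at 6.23 and at most 0.417 CPM (0.0908). Lcn2 and Retnlg also had negative values and were highest in double sample 1, at 25.1 and 4.37 CPM. Cxcr2, a chemokine receptor of mature neutrophils, was at 0.0809 CPM in double sample 1, on 2 counts. It was highest in triple sample 4, at 4.41 CPM. Csf3r, Mpo, Mmp8, Cxcr2, Lcn2 and Retnlg were singled out after their values were seen. Whether the maturity of neutrophils differed between samples was not tested. Double sample 1 also held the most skeletal muscle, adipocyte and summed erythroid and platelet RNA (165 CPM against 28.8 to 135), and their part in the neutrophil values was not tested.

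T cell markers were detected in all 8 samples at low levels, and 0 of 5 were called. Cd3e, a chain of the T cell receptor complex, stood at 0.647 and 2.27 CPM in the double knockouts against 2.52, 4.02, 1.15, 1.26, 4.91 and 2.00 CPM in the triple knockouts. Cd8a, the co-receptor of cytotoxic T cells, was at 1.42 and 3.61 CPM against 4.18, 5.44, 3.05, 3.64, 8.77 and 3.97 CPM (0.94 ± 0.54; edgeR adjusted p = 0.280). Triple sample 5 was highest for both, and double sample 2 lay within the triple range. Cd4, the helper co-receptor that macrophages and dendritic cells can share, was at 4.85 and 14.8 CPM against 14.8, 8.01, 4.81, 13.7, 17.3 and 6.90 CPM (0.15 ± 0.58; edgeR adjusted p = 0.884). Cd3d was at 0.647 and 1.59 CPM against 0.663 to 2.88 CPM. Foxp3, the factor of regulatory T cells, was at 0.324 and 1.33 CPM against 0.533 to 4.21 CPM, highest in triple sample 1. Its exons overlap those of Ccdc22, Ppp1r3f, Flicr and Gm36995, so its counts are uncertain. Of 15 further T cell genes 0 were called and 11 were highest in triple sample 5, against 13.8% of all genes tested. Ctla4, an inhibitory receptor, was at -1.08 ± 0.58 (edgeR adjusted p = 0.254) and Cd8b1, the partner chain of Cd8a, at 1.05 ± 0.58 (0.269).

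Of the NK and cytotoxic markers 0 of 4 were called. All 4 were highest in triple sample 5 (13.8% of all genes tested), as were 4 of the 5 T cell markers. Ncr1 (NKp46), the activating receptor that defines NK cells, stood at 0.0404 and 0.289 CPM in the double knockouts against 1.43, 0.696, 0.192, 0.364, 4.50 and 0.400 CPM in the triple knockouts. It had 1 count in double sample 1 and 142 in triple sample 5, and a log2 fold change of 2.89 ± 1.46 (edgeR adjusted p = 0.229). Gzmb, granzyme B, was at 0.485 and 1.26 CPM against 1.19, 1.93, 0.481, 0.994, 3.10 and 1.07 CPM (edgeR adjusted p = 0.528). Prf1, perforin, was at 0.404 and 1.12 CPM against 0.385 to 2.25 CPM. Both double samples lay within the triple range for Gzmb and Prf1. Klrb1c (NK1.1), which differs between mouse strains and has near copies beside it, had 75 counts in all, 36 of them in triple sample 5. Of 8 further NK and cytotoxic genes 0 were called and 7 were highest in triple sample 5. Nkg7, a granule membrane protein, was at 0.728 and 1.41 CPM against 1.66 to 7.79 CPM (1.68 ± 0.72; edgeR adjusted p = 0.169), and Eomes, a transcription factor of NK and T cells, at 0.283 and 0.830 CPM against 0.705 to 3.42 CPM (1.64 ± 0.73; 0.181).

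Of the B and plasma cell markers 0 of 3 were called, and Jchain made up most of their summed level. Jchain, which joins secreted IgA and IgM, stood at 23.6 and 27.0 CPM in the double knockouts against 4.64, 79.5, 5.19, 2.85, 27.8 and 5.23 CPM in the triple knockouts (-0.28 ± 1.2; edgeR adjusted p = 0.901). The other 4 triple samples thus lay below both double samples. Cd79a, a signalling chain of the B cell receptor, was at 0.809 and 0.758 CPM against 0.199, 0.633, 0.257, 0.166, 0.475 and 0.433 CPM. Its groups did not overlap, on 5 to 21 counts a sample, and its value of -1.11 ± 0.54 did not pass (edgeR adjusted p = 0.213). Ms4a1 (CD20), with 60 counts in all, stood at 0 and 0.613 CPM in the double knockouts against 0.0995, 0.411, 0.160, 0.0663, 0.475 and 0.167 CPM in the triple knockouts (-0.42 ± 1.09; edgeR adjusted p = 0.827). Of 8 further B lineage genes 0 were called. The antibody chains were abundant beside these B cell surface markers: Igkc stood at 128 and 199 CPM against 16.2, 278, 21.9, 11.4, 146 and 36.1 CPM, and Ighm at 59.5 and 52.9 CPM against 25.3, 439, 102, 10.6, 119 and 34.6 CPM (named after their values were seen). Cd79b, the partner chain of Cd79a, was at 1.90 and 2.60 CPM against 1.82 to 7.50 CPM (0.78 ± 0.53; edgeR adjusted p = 0.357).

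Mast cell markers were highest in triple sample 1, and 0 of 2 were called. Cpa3, carboxypeptidase A3 of mast cell granules, stood at 1.66 and 1.01 CPM in the double knockouts against 42.2, 5.13, 8.08, 6.16, 0.570 and 0.700 CPM in the triple knockouts. Triple samples 5 and 6 were below both double samples, and the log2 fold change was 2.97 ± 1.67 (edgeR adjusted p = 0.275). Kit, the stem cell factor receptor of mast cells that other cells also carry, was at 1.94 and 7.14 CPM against 14.3, 5.79, 3.50, 4.80, 7.82 and 12.3 CPM (adjusted p = 0.445). Kit did not follow Cpa3 in triple sample 6, its second highest sample. Of 9 further mast cell genes 8 were highest in triple sample 1, against 11.8% of all genes tested. Among them were the proteases Mcpt4 (41.0 CPM against 0.445 to 6.64 elsewhere), Cma1 (32.0 against 0.467 to 6.93) and Tpsb2 (39.8 against 0.791 to 11.5), named after their values were seen.

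The single call among those 9 was Il1rl1, the receptor for interleukin 33, which rose by 5.15 ± 0.75 (edgeR adjusted p = 0.00759). It stood at 16.7 and 28.9 CPM in the double knockouts against 1153, 282, 1152, 1110, 455 and 695 CPM in the triple knockouts. The other 8 genes summed to 25.3 and 21.8 CPM in the double knockouts and 196, 44.0, 66.4, 62.6, 34.6 and 43.8 CPM in the triple knockouts. Both double samples were lowest and triple samples 1, 3 and 4 highest for Il1rl1 and for this sum alike. Gata2, named after its values were seen, was the largest part of this sum in every sample except triple sample 1. Without Gata2 the sum of double sample 1 lay above those of triple samples 5 and 6. The agreement at the low end thus rested on Gata2. Relative to Ptprc, Gata2 was at 0.585 and 0.152 in the double knockouts against 0.0980 to 0.519 in the triple samples. Gene by gene, 4 of the 9 were lowest in double sample 1, 1 in double sample 2 and 2 each in triple samples 5 and 6. In triple sample 6 Il1rl1 was at 695 CPM and Cpa3 at 0.700 CPM. Fibroblasts and other stromal cells can also express Il1rl1. Summed fibroblast markers were at 6902 and 8389 CPM in the double knockouts and 14777 to 30183 CPM in the triple knockouts. Col1a1 and Col3a1 made up most of the sum in every sample. Of its 8 genes 3 lay higher in all triple samples (12.8% of all genes), while Dcn, Lum, Col1a1, Mfap5 and Pi16 overlapped between the groups. The part of fibroblasts in the Il1rl1 level was not tested. Without double sample 1 the value was 4.80 (edgeR adjusted p = 0.0742), and within the samples of other description codes it was 4.88 (0.252).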

How the data were processed

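RNA-seq counts of 8 samples (2 double, 6 triple knockout) were analysed. Files deposited by the authors hold raw counts for each Ensembl gene. Per the submitters' processing notes, HTSeq, DESeq2 and the builds mm10 and GRCm38 were used, with no role given. The aligner, annotation release and strand setting are not stated there, so reads shared with an overlapping or antisense gene may be counted for either. Starts are printed 1-based, and 35 of 38 markers had the coordinates of GENCODE M21.

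The test was edgeR 4.0.16's quasi-likelihood test (R 4.3.3) after filterByExpr and TMM scaling, triple minus double, with Benjamini-Hochberg adjustment over 17709 genes. Genes with an adjusted p under 0.05 were called. CPM uses total counts times TMM factors. SEs were derived from the test statistic. Alternatives were DESeq2 1.42.0, limma-voom (limma 3.58.1), other scalings and filters, robust dispersion, the description code, and leaving out each sample. The tests were checked on simulated data.

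Values in every sample are given, per lineage, for called markers, for the 2 tested markers with the smallest p and for the one with the highest mean CPM. Up to 4 called further genes per lineage are named, or up to 2 of smallest p where none was called, except 1 gene that is not reported here. Further genes were listed by textbook role. Members and lists were chosen with earlier results of these data known. Replicate numbers follow accession order and pair nothing. No libraries were duplicates: the closest pair had a median per-gene chi-square of 8.33, where sampling noise gives 0.455. Symbols matched 52403 of 52636 genes. Intervals and floors (3 counts) cover counting error only.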

Additional observations from a re-analysis of the deposited data

Results flagged for a closer look

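Of 44 values checked for a triple knockout sample far from the other 5 on the log2 scale, 3 stood out, where chance alone picks about 1 in 20. Mertk was far above the rest in triple sample 4, at 63.1 CPM. Klrb1c was far above the rest in triple sample 5, at 1.14 CPM or 36 counts. The summed mast cell markers were far above the rest in triple sample 1, at 56.5 CPM.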

How the results depend on the processing

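No paired analysis was possible because the replicate numbers follow accession order and no label ties a double to a triple sample. Against 2 markers, 5 further leukocyte genes and 1478 of all genes called, scaling by total count gave 1, 3 and 969, DESeq2 5, 13 and 3369, the description code as a term 1, 5 and 962, the other codes alone 0, 0 and 1, and code SN930 alone 3, 13 and 2156. Leaving out 1 sample gave 0 to 12 markers, 0 to 33 further genes and 315 to 5579 of all genes. DESeq2 added Mrc1, higher, and Itgax and S100a8, lower. Scaling by total count moved the median of all genes to 0.21 and left Cd68 as the called marker. RLE and upper-quartile scaling, both filters, limma-voom and robust dispersion gave the same 2 markers.

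Summed over a lineage, the log2 ratio of group means (triple over double) ran from 0.21 to 1.15 for macrophages, from -1.74 to 0.25 for dendritic cells, from -3.78 to 0.80 for neutrophils and from -0.12 to 1.46 for T cells when 1 sample was left out, with the ends in the fits without double sample 1 or 2.

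Among single markers, the sign of the log2 fold change turned within the other codes for Fcgr1 (-0.21), C1qb (-0.0939), Aif1 (-0.19), Clec9a (-0.29), S100a8 (0.0646), Cd3d (-6.68e-03), Cd4 (-0.70), Jchain (0.15), Klrb1c (-1.55) and Gzmb (-0.0794). It turned within code SN930 for Fcgr3 (0.69), Cd163 (-0.56) and Ms4a1 (5.82), and with limma-voom for Ms4a1 (0.78). Fcgr3, at -0.03 in the main fit of all 8 samples, also turned with upper-quartile scaling (0.0177), total count (0.10), limma-voom (0.0606) and the code as a term (0.0366). When 1 sample was left out, Ptprc ran from -0.16 to 2.04, Cd14 from -1.58 to 9.18e-03, Fcgr1 from -0.0585 to 3.21, Fcgr3 from -0.52 to 0.72, C1qb from -0.0619 to 0.78, Aif1 from -0.0473 to 2.84, Clec9a from -0.66 to 7.42, S100a8 from -4.39 to 0.96, S100a9 from -3.01 to 0.67, Cd3d from -0.0477 to 1.27, Cd4 from -0.45 to 1.18, Ms4a1 from -1.40 to 5.81 and Klrb1c from -0.77 to 6.29. The cause was not tested. Markers with few counts, such as Ly6g, Ms4a1 and Klrb1c, are limited by depth, and the double group by its 2 samples.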
